A study of Mus musculus with 3 samples.

Results

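The genes described here are 10 markers of germ cell identity, the RNA helicase Ddx4, the RNA-binding proteins Dazl and Elavl2, the Tudor-domain proteins Stk31 and Rnf17, the receptor Kit, the transcription factors Taf7l and Bnc1, the tubulin Tuba3a and the mitochondrial carrier Slc25a31. Each was looked for on the arrays by matching a probe's transcript accession to a mouse RefSeq gene table. Of the 10 genes, 9 had a probe, with 13 probes in all among 41174 on the arrays. Dazl, Elavl2, Taf7l and Tuba3a had a pair of probes each, and no probe matched Rnf17, so no value is given for it. Every one of the 13 probes was well above background on all 6 arrays, so all 9 measured genes passed the filter on dim probes, and 0 of their spots were saturated.

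Male gonads were taken at embryonic day 14.5 from mouse embryos of a line labelled MCH, and their total RNA was hybridised to one-colour Agilent arrays with 2 arrays per genotype. Arrays labelled Cyp26b1 knockout came from Cyp26b1-/- embryos with intact Stra8, arrays labelled double knockout from embryos that were Cyp26b1-/- and Stra8-/-, and wild-type arrays from embryos that were +/+ at both genes. The duplicates are described as biological, without saying if RNA of several embryos was pooled, so the p-values speak only to the spread among these 6 arrays. How the null alleles were built is not stated in the labels.

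Germ cells share a set of transcripts that somatic gonad cells largely lack, many of them for proteins that store, silence or translate RNA. In the fetal testis retinoic acid is degraded by the enzyme CYP26B1, and germ cells normally stop dividing without starting meiosis. In the fetal ovary retinoic acid persists and induces Stra8, a gene needed for entry into meiosis. A whole-gonad array reports the amount of a transcript in the tissue, so fewer germ cells and less RNA per germ cell cannot be told apart from the level of 1 gene. Germ cell genes can also be set against each other on the same array.

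The promoter windows of the genes are shown so that genes with different changes can be set side by side. Each window holds 250 bases before and 50 bases after an annotated start, from RefSeq on build GRCm38.p6, written 5′ to 3′ in the direction of transcription. A window was found for 9 of the 10 genes, and 5 are printed here. Capitals mark matches to CACGTG, to GGCGGGAA or to CNCCTCAG on either strand, so that a match on the other strand appears as its reverse complement. CACGTG is the E-box read by MAX and MGA, GGCGGGAA is of the kind read by E2F6, and CNCCTCAG has been described for STRA8 in mice. The windows below lie at chrX:134476441-134476740 on the minus strand for Taf7l, chr6:125286032-125286331 on the minus strand for Tuba3a, chr5:75574737-75575036 on the plus strand for Kit, chr13:112652261-112652560 on the minus strand for Ddx4 and chr17:50293571-50293870 on the minus strand for Dazl.
Taf7l: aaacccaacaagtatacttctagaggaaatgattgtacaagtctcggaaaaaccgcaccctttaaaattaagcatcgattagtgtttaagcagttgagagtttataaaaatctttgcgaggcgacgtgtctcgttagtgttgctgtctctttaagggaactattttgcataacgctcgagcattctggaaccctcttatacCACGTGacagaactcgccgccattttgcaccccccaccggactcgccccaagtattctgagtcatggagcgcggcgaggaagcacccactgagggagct
Tuba3a: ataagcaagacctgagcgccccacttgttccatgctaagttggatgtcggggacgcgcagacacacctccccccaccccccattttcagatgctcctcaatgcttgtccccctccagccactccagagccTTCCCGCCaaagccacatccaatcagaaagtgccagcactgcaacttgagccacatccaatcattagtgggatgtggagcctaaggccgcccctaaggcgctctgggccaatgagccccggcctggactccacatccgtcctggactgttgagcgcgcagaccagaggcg
Kit: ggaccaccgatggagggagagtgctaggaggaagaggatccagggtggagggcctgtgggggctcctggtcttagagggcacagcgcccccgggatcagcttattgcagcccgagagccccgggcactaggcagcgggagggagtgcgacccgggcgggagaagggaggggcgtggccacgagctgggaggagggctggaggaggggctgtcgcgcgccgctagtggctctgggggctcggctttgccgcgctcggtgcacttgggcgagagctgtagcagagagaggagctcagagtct
Ddx4: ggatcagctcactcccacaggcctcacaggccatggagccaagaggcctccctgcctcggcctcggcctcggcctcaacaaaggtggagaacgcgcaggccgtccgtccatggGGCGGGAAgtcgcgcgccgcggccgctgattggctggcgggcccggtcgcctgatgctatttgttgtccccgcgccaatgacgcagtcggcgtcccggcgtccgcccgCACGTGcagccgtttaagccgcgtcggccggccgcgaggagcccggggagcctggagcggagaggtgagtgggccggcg
Dazl: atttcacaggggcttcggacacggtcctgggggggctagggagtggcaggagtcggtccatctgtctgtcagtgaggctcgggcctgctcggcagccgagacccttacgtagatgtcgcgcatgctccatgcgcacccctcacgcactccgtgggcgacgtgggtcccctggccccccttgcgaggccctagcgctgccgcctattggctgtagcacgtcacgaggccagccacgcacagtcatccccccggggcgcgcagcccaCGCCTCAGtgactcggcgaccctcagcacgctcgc
CACGTG was found in windows of 4 of the 9 genes (Ddx4, Taf7l, Stk31 and Slc25a31) and in 7.15% of 32851 promoter windows in the table. Ddx4 held it 29 bases before the start and Taf7l 49 bases before it. GGCGGGAA was found in 3 (Ddx4, Tuba3a and Slc25a31), against 2.19% of all windows. CNCCTCAG was found in 2 (Dazl and Stk31), against 7.94% of all windows. The retinoic acid response element DR5 was found in 0 of the 9, and in 0.0974% of all windows. In the printed Kit window none of these letters occurred. CG dinucleotides numbered 12 in the Tuba3a window, 17 in Taf7l, 20 in the printed Kit window, 28 in Dazl, 38 in Ddx4 and 50 in Bnc1, beside a median of 7 over all windows. A gene was counted if any of its windows held a match, whereas the shares are over single windows. CACGTG and GGCGGGAA each hold a CG, and all windows of these genes held more CG than the median. The shares are therefore not a like background. The matches are of letters and carry no measurement of binding.

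Values below are called relative levels, the log2 processed signal of a probe after subtraction of its array's 75th percentile. They compare arrays for 1 probe and do not rank genes. The 75th percentile itself was 974 to 1494 intensity units, 61.9% to 68.6% of probes were well above background, and arrays of 1 genotype correlated with r of 0.994 to 0.996. Each genotype lay on a slide of its own, and the Cyp26b1 knockout slide was scanned on another day than the other slides, so slide and genotype cannot be told apart. The targeted genes were read first. The Cyp26b1 probe averaged 4.05 in arrays labelled Cyp26b1 knockout and 4.01 in arrays labelled double knockout, against 3.93 in wild type (adjusted p = 0.552 and 0.771). The Stra8 probe averaged 7.11 in arrays labelled Cyp26b1 knockout and 6.06 in arrays labelled double knockout, against 3.07 in wild type. The labels do not say where these probes lie relative to the disrupted parts, so neither level checks the labels, and genotype names below are those of the labels.

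**Figure D1:**
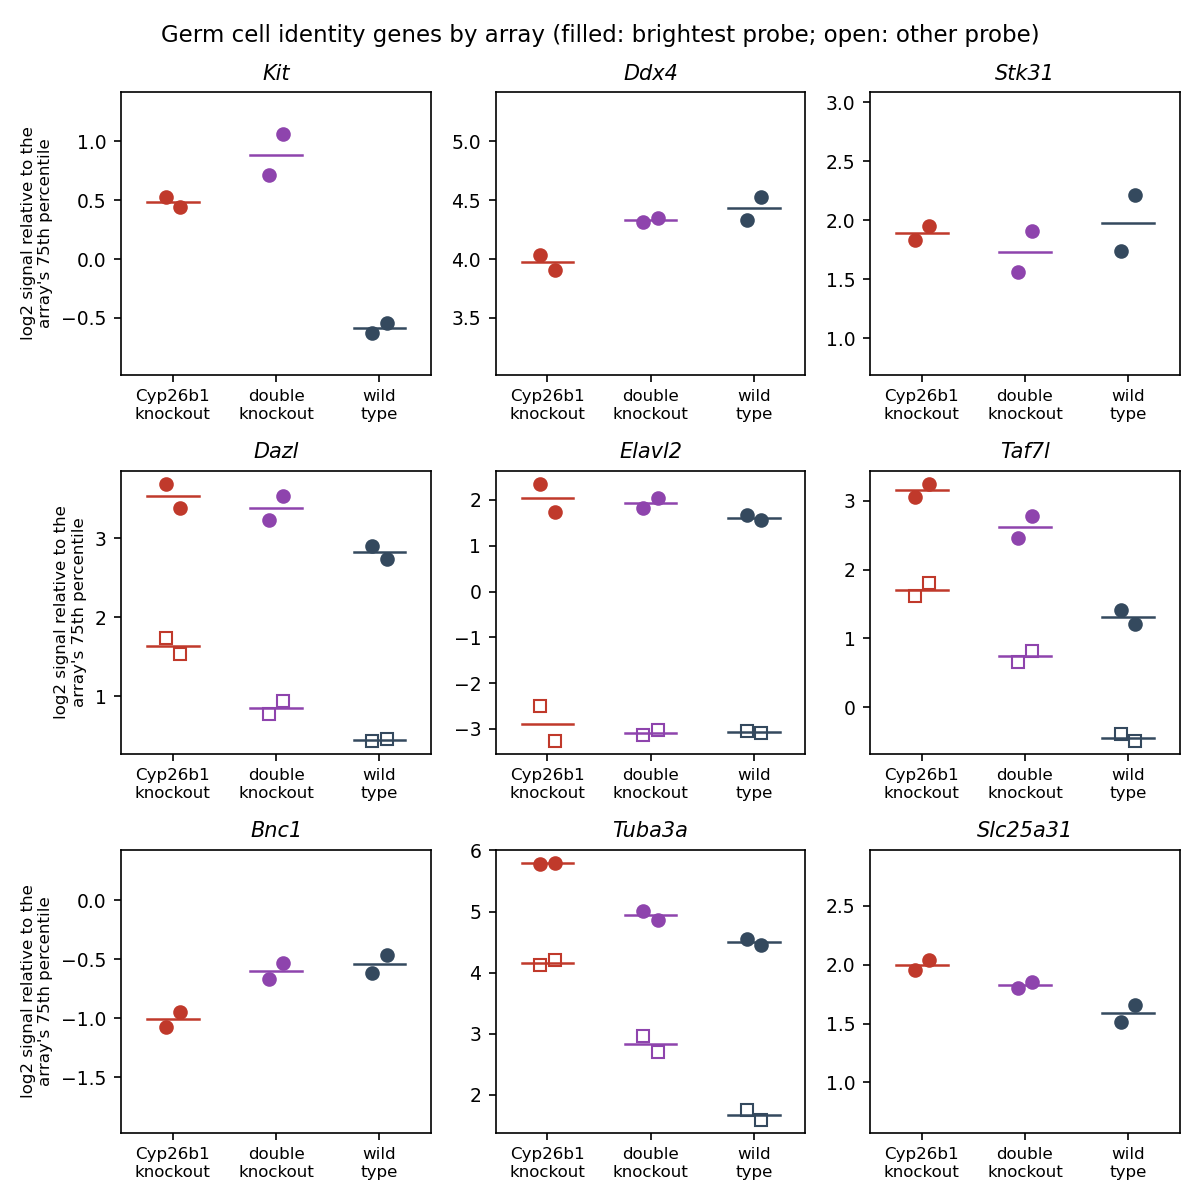
Relative log2 level (y axis, log2 signal minus the array's 75th percentile) of the 9 measured genes on each of the 6 arrays, with a bar at the mean of the 2 arrays of a genotype; filled circles are the brightest probe of a gene and open squares its other probe. Taf7l, Tuba3a and Kit sit higher in both knockout genotypes than in wild type, Ddx4 and Bnc1 sit lowest in Cyp26b1 knockout, and Stk31 overlaps across all 3 genotypes.

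Kit, the receptor tyrosine kinase for KIT ligand that primordial germ cells need to survive and migrate, was higher in both knockout genotypes than in wild type. Its relative level was 0.53 and 0.44 in Cyp26b1 knockout arrays, 0.71 and 1.06 in double knockout arrays, and -0.63 and -0.54 in wild-type arrays. No knockout array overlapped the wild-type arrays, and the double knockout arrays were both above the Cyp26b1 knockout arrays. The log2 change was 1.07 ± 0.13 (SE, n = 2 arrays per genotype) in Cyp26b1 knockout against wild type, a 2.10-fold difference (adjusted p = 0.000624). Double knockout differed from wild type by 1.47 ± 0.13, or 2.77-fold (adjusted p = 0.00139). Between double knockout and Cyp26b1 knockout the change was 0.40 ± 0.13 (adjusted p = 0.0388), and it missed the threshold when any 1 of the arrays was left out except double knockout array 1.

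The Kit probe was printed 10 times on each array. The SD among spots of 1 array was 0.032 to 0.063 on the log2 scale. Spots spanned 0.45 to 0.59 and 0.34 to 0.50 on the Cyp26b1 knockout arrays, 0.63 to 0.78 and 1.01 to 1.12 on the double knockout arrays, and -0.73 to -0.53 and -0.69 to -0.46 on the wild-type arrays. The spots of the 2 double knockout arrays did not overlap each other, so the spread between those arrays exceeded the spread of spots. On double knockout array 2, 1 spot at 2.25 was marked as an outlier by the scanning software and left out, leaving 9.

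**Figure D2:**
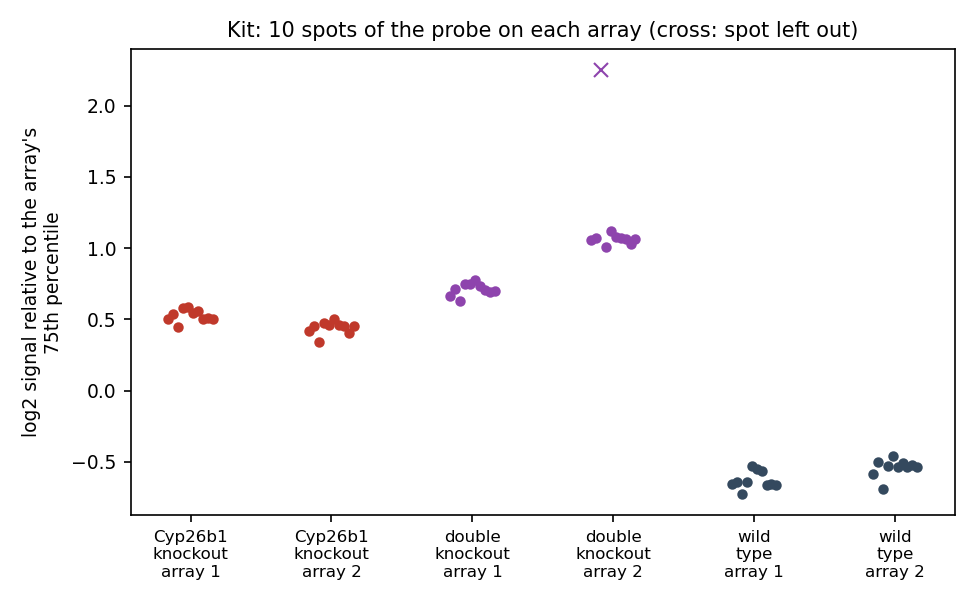
Relative log2 level (y axis) of each of the 10 spots of the Kit probe on the 6 arrays (x axis), with a cross for the spot left out. Spots of 1 array lie within a narrow band (SD 0.032 to 0.063), the 2 double knockout arrays form separate bands, and all wild-type spots lie below all spots of both knockout genotypes.

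Kit is also made by mast cells and melanocytes, so markers of those cells are given beside it. Of 8 mast cell markers on the array, 3 (Tpsb2, Mcpt4 and Ms4a2) were dim, that is not well above background, on all 6 arrays, and the summed level of the 8, in multiples of the array's 75th percentile, was 3.13 to 3.36 in Cyp26b1 knockout, 2.89 to 3.09 in double knockout and 2.11 to 2.49 in wild type. Hdc, the histamine-forming enzyme, made up most of that sum on every array. It was higher by 0.63 in Cyp26b1 knockout (adjusted p = 0.00153) and by 0.48 in double knockout (adjusted p = 0.0212). Of the 4 mast cell markers tested, Hdc was the only 1 called in either of these comparisons. The shares of all features called higher were 21.3% in Cyp26b1 knockout and 5.43% in double knockout, and lower 29.9% and 6.56%. The melanocyte markers Tyr and Tyrp1 were dim on all 6 arrays, and the summed level of 6 melanocyte markers was 0.586 to 0.619 in Cyp26b1 knockout, 0.601 to 0.618 in double knockout and 0.628 to 0.644 in wild type. Slc45a2, a transporter of pigment cells, was well above background on both Cyp26b1 knockout arrays and on 0 of the others. The melanosome gene Pmel was at 1.21 in Cyp26b1 knockout against wild type (adjusted p = 0.00112). Of the 4 melanocyte markers tested in that comparison, 1 was higher, Pmel, and 1 was lower, beside 21.3% and 29.9% of all features. Pmel averaged low relative levels of -2.30 in Cyp26b1 knockout, -3.36 in double knockout and -3.50 in wild type. The part of mast cells and melanocytes in the Kit difference was not tested.

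The KIT pathway, which carries the signal from the receptor, was measured through 16 genes. In Cyp26b1 knockout against wild type 2 were higher and 7 lower, beside 21.3% of all 21552 features higher and 29.9% lower, with a median log2 change of -0.21, beside -0.09 over all features. The E3 ligase Cbl, which marks activated KIT for degradation, fell by 1.83 (adjusted p = 0.000415), from -2.83 to -4.66, which are low relative levels. The kinase subunit Pik3ca fell by 0.85 (adjusted p = 0.000819). Of the 16, 1 was higher in double knockout than in wild type, the ligand gene Kitl at 0.54 (adjusted p = 0.0370), and 1 was lower, Cbl at -0.78 (adjusted p = 0.0459), beside 5.43% of all features higher and 6.56% lower. Set against Cyp26b1 knockout, double knockout had 7 higher and 1 lower, beside 25.5% and 17.6% of all features, among them Cbl at 1.06 (adjusted p = 0.00522) and Socs6, a suppressor of KIT signalling, at 0.49 (adjusted p = 0.00541).

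Ddx4, the DEAD-box helicase of germ granules known as mouse vasa homologue, was lower in Cyp26b1 knockout than in the other genotypes. Its relative level was 4.04 and 3.91 in Cyp26b1 knockout, 4.31 and 4.35 in double knockout, and 4.33 and 4.53 in wild type. The Cyp26b1 knockout arrays lay below all others, while double knockout and wild type overlapped. The log2 change of Cyp26b1 knockout against wild type was -0.46 ± 0.098 (SE, n = 2), a 1.37-fold lower level (adjusted p = 0.00680), which missed the threshold without wild-type array 2 (adjusted p = 0.0544). With normexp background correction the change was -0.15 (adjusted p = 0.702), and -0.38 (adjusted p = 0.00889) when spots marked in their local background were also left out. Between double knockout and wild type it was -0.10, with a 95% interval of -0.33 to 0.13 (adjusted p = 0.536). Ddx4 was higher in double knockout than in Cyp26b1 knockout by 0.36 ± 0.098 (adjusted p = 0.0225), a call lost without Cyp26b1 knockout array 2 or either double knockout array, and at 0.17 under quantile normalization (adjusted p = 0.160).

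Dazl, an RNA-binding protein that germ cells need to translate germ cell messages and to become competent for meiosis or spermatogenesis, was higher in both knockout genotypes than in wild type. The brighter probe read 3.69 and 3.39 in Cyp26b1 knockout, 3.22 and 3.54 in double knockout, and 2.90 and 2.74 in wild type. Both knockout genotypes lay above wild type and overlapped each other. The log2 change was 0.72 ± 0.14 (SE, n = 2) in Cyp26b1 knockout against wild type (1.64-fold, adjusted p = 0.00492; 0.31 without scaling between arrays, adjusted p = 0.147) and 0.56 ± 0.14 in double knockout against wild type (1.48-fold, adjusted p = 0.0451). The second call was lost in several alternatives, among them leaving out double knockout array 2 (0.40, adjusted p = 0.171), wild-type array 1 or wild-type array 2 (0.48, adjusted p = 0.233). Between double knockout and Cyp26b1 knockout the brighter probe gave -0.15, with a 95% interval of -0.49 to 0.18 (adjusted p = 0.408).

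The other Dazl probe separated the 3 genotypes. It read 1.73 and 1.53 in Cyp26b1 knockout, 0.78 and 0.94 in double knockout, and 0.44 and 0.46 in wild type. Its log2 change was 1.19 ± 0.10 in Cyp26b1 knockout against wild type (adjusted p = 0.000175), 0.41 ± 0.10 in double knockout against wild type (adjusted p = 0.0449) and -0.78 ± 0.10 in double knockout against Cyp26b1 knockout (adjusted p = 0.00120). The probes therefore gave the same direction against wild type and disagreed on whether the knockout genotypes differed.

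Stk31, a germ cell protein with a Tudor domain and a kinase-like domain, did not pass the test in any comparison. It read 1.83 and 1.95 in Cyp26b1 knockout, 1.56 and 1.91 in double knockout, and 1.74 and 2.22 in wild type, and the genotypes overlapped. The change was -0.09 in Cyp26b1 knockout against wild type, with a 95% interval of -0.49 to 0.32 (adjusted p = 0.690). The double knockout differed from wild type by -0.25, with a 95% interval of -0.65 to 0.16 (adjusted p = 0.384). The interval leaves room for a difference of either sign.

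Elavl2, an RNA-binding protein of the ELAV family made in neurons and germ cells, did not pass either. The brighter probe read 2.35 and 1.74 in Cyp26b1 knockout, 1.82 and 2.03 in double knockout, and 1.66 and 1.57 in wild type. All knockout arrays were above both wild-type arrays, but the Cyp26b1 knockout arrays differed from each other with an SD of 0.43, the widest among the brightest probes. The change was 0.43 ± 0.19 in Cyp26b1 knockout against wild type (adjusted p = 0.0927) and 0.31 ± 0.19 in double knockout against wild type (adjusted p = 0.314). Without Cyp26b1 knockout array 2 the first value was 0.74 (adjusted p = 0.00557). The dimmer probe read -2.51 and -3.26 in Cyp26b1 knockout, -3.14 and -3.02 in double knockout, and -3.03 and -3.09 in wild type, overlapping across genotypes (adjusted p = 0.555 for Cyp26b1 knockout against wild type). Of 11 neuron markers on the array, Dbh was dim on all 6 arrays, and the summed level of the 11 was 1.40 to 1.78 in Cyp26b1 knockout, 1.35 to 1.51 in double knockout and 1.51 to 1.56 in wild type. Of the 7 neuron markers tested, 1 was higher and 3 were lower in Cyp26b1 knockout than in wild type, with a median of -0.34. The shares of all features were 21.3% higher and 29.9% lower. In double knockout against wild type 0 were called, beside 5.43% and 6.56%. In double knockout against Cyp26b1 knockout 0 were higher and 1 lower, beside 25.5% and 17.6%. The part of neurons in the Elavl2 levels was not tested.

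Elavl3, the ELAV paralogue of neurons and one of the 11, was higher by 2.08 in Cyp26b1 knockout than in wild type (adjusted p = 0.000524) and at -1.35 in double knockout against Cyp26b1 knockout (adjusted p = 0.00426). Elavl3 averaged low relative levels of -1.83 in Cyp26b1 knockout, -3.18 in double knockout and -3.92 in wild type. Elavl1, the paralogue that is widely expressed, changed by 0.03 in Cyp26b1 knockout against wild type (adjusted p = 0.818) and by -0.03 in double knockout against wild type (adjusted p = 0.867), and by -0.06 between double knockout and Cyp26b1 knockout (adjusted p = 0.648). Boll, the DAZ family member of later meiotic cells, was higher by 1.26 in Cyp26b1 knockout (adjusted p = 0.000598) and by 0.88 in double knockout (adjusted p = 0.0119). Between double knockout and Cyp26b1 knockout it was at -0.37 (adjusted p = 0.0795). Boll averaged low relative levels of -2.56 in Cyp26b1 knockout, -2.93 in double knockout and -3.81 in wild type. Tdrd1, a Tudor-domain protein of the piRNA pathway like Rnf17, fell by 2.01 in Cyp26b1 knockout against wild type (adjusted p = 0.000389) and averaged 3.33 in double knockout, against 1.83 in Cyp26b1 knockout (adjusted p = 0.00184). Over the 14 paralogues measured, 4 were higher and 3 lower in Cyp26b1 knockout against wild type, beside 21.3% and 29.9% of all features. In double knockout against wild type 1 was higher and 0 lower, beside 5.43% and 6.56%. Between double knockout and Cyp26b1 knockout 3 were higher and 3 lower, beside 25.5% and 17.6%. Pdgfra, a receptor kinase related to Kit and made by interstitial cells, was lower in Cyp26b1 knockout than in wild type, at -1.07 (adjusted p = 0.000401), and higher by 0.89 in double knockout than in Cyp26b1 knockout (adjusted p = 0.00132).

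Taf7l, the germ cell paralogue of the general transcription factor subunit TAF7 and a gene of the X chromosome, showed the largest change of Cyp26b1 knockout against wild type among the brightest probes. It read 3.06 and 3.25 in Cyp26b1 knockout, 2.46 and 2.77 in double knockout, and 1.42 and 1.21 in wild type. The 3 genotypes did not overlap, with double knockout between the others. The log2 change was 1.84 ± 0.13 (SE, n = 2) in Cyp26b1 knockout against wild type, or 3.58-fold (adjusted p = 0.000129). For double knockout against wild type it was 1.30 ± 0.13, or 2.47-fold (adjusted p = 0.00229). Double knockout was lower than Cyp26b1 knockout, at -0.54 ± 0.13 (1.45-fold, adjusted p = 0.0152), a call lost without Cyp26b1 knockout array 2 or double knockout array 1 and without scaling between arrays (-0.21, adjusted p = 0.394).

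The other Taf7l probe gave the same order. It read 1.62 and 1.80 in Cyp26b1 knockout, 0.66 and 0.81 in double knockout, and -0.40 and -0.49 in wild type. Its changes were 2.15 ± 0.10 in Cyp26b1 knockout against wild type (adjusted p = 4.67e-05), 1.18 ± 0.10 in double knockout against wild type (adjusted p = 0.00147) and -0.97 ± 0.10 in double knockout against Cyp26b1 knockout (adjusted p = 0.000624). Taf7, the somatic paralogue, changed by 0.43 in Cyp26b1 knockout against wild type (adjusted p = 0.112) and by -0.13 in double knockout against wild type (adjusted p = 0.702). Between double knockout and Cyp26b1 knockout it was at -0.56 (adjusted p = 0.0567). Taf7 averaged low relative levels of -3.70 in Cyp26b1 knockout, -4.27 in double knockout and -4.14 in wild type.

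TFIID, the complex in which TAF7 sits, was measured through 13 genes of its subunits and their paralogues, Taf7 among them. Of these, 3 were higher and 3 lower in Cyp26b1 knockout than in wild type, beside 21.3% and 29.9% of all features. Their median change was -0.09, beside -0.09 over all features. Taf6 was at 1.22 (adjusted p = 0.000708) and the TATA-binding protein gene Tbp at -0.57 (adjusted p = 0.00448). Only Taf10, at 0.40, was called in double knockout against wild type (adjusted p = 0.0382). That made 1 gene higher and 0 lower, beside 5.43% and 6.56% of all features. Relative to Cyp26b1 knockout, 4 were higher and 1 lower in double knockout, beside 25.5% and 17.6% of all features. Tbp was at 0.53 (adjusted p = 0.00825) and Taf6 at -1.38 (adjusted p = 0.000849).

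Bnc1, the zinc-finger protein basonuclin of germ cells and of some epithelia, was lower in Cyp26b1 knockout. It read -1.08 and -0.94 in Cyp26b1 knockout, -0.67 and -0.53 in double knockout, and -0.62 and -0.47 in wild type. As for Ddx4, the Cyp26b1 knockout arrays lay below all others, and double knockout overlapped wild type. The change was -0.47 ± 0.11 (SE, n = 2) in Cyp26b1 knockout against wild type (1.38-fold lower, adjusted p = 0.0114), lost without Cyp26b1 knockout array 1 (adjusted p = 0.0526) or wild-type array 2 (adjusted p = 0.0846) and with normexp (-0.52, adjusted p = 0.133). Against wild type the double knockout differed by -0.06, with a 95% interval of -0.33 to 0.20 (adjusted p = 0.756). Double knockout was above Cyp26b1 knockout by 0.41 ± 0.11 (adjusted p = 0.0240), lost without Cyp26b1 knockout array 1 or double knockout array 2 and with normexp (0.43, adjusted p = 0.309).

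Bnc1 is also made by mesothelium, and markers of that layer are given beside it. The summed level of 9 mesothelial markers was 16.7 to 18.6 in Cyp26b1 knockout, 17.9 to 19.5 in double knockout and 21.0 to 21.1 in wild type. Of the 9, 4 were lower and 1 higher in Cyp26b1 knockout than in wild type, beside 29.9% and 21.3% of all features. The higher one was Upk3b at 0.97 (adjusted p = 0.00129). In double knockout 2 were higher and 2 lower than in wild type, beside 5.43% and 6.56% of all features. Relative to Cyp26b1 knockout 3 were higher and 1 lower, beside 25.5% and 17.6%. The part of mesothelium in the Bnc1 difference was not tested.

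Tuba3a, an alpha-tubulin made mainly in testis, was higher in both knockout genotypes than in wild type. The brighter probe read 5.78 and 5.80 in Cyp26b1 knockout, 5.02 and 4.86 in double knockout, and 4.56 and 4.45 in wild type. The 3 genotypes did not overlap. The change was 1.29 ± 0.092 (SE, n = 2) in Cyp26b1 knockout against wild type (2.44-fold, adjusted p = 0.000129), 0.44 ± 0.092 in double knockout against wild type (1.35-fold, adjusted p = 0.0262) and -0.85 ± 0.092 in double knockout against Cyp26b1 knockout (1.80-fold lower, adjusted p = 0.000810). The call of double knockout against wild type was lost when any 1 of the 4 arrays compared was left out, with adjusted p values up to 0.179.

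The dimmer Tuba3a probe gave larger differences in the same directions. It read 4.12 and 4.20 in Cyp26b1 knockout, 2.97 and 2.70 in double knockout, and 1.75 and 1.59 in wild type. Its changes were 2.49 ± 0.11 in Cyp26b1 knockout against wild type (5.63-fold, adjusted p = 4.33e-05), 1.16 ± 0.11 in double knockout against wild type (2.24-fold, adjusted p = 0.00204) and -1.33 ± 0.11 in double knockout against Cyp26b1 knockout (adjusted p = 0.000344). Tuba3b, a near-identical tubulin gene, matched no probe here, and which of both transcripts the Tuba3a probes bind cannot be told apart.

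Slc25a31, the germ cell carrier that exchanges ADP and ATP across the inner mitochondrial membrane, was modestly higher in Cyp26b1 knockout. It read 1.95 and 2.04 in Cyp26b1 knockout, 1.80 and 1.86 in double knockout, and 1.51 and 1.66 in wild type. The genotypes did not overlap and had the same order as for Taf7l. The change was 0.41 ± 0.088 (SE, n = 2) in Cyp26b1 knockout against wild type (1.33-fold, adjusted p = 0.00710), lost without wild-type array 1 (adjusted p = 0.0570). Without scaling between arrays the change was 0.00057 (adjusted p = 0.998). The change was 0.24 ± 0.088 in double knockout against wild type (adjusted p = 0.118) and in double knockout against Cyp26b1 knockout -0.17 ± 0.088 (adjusted p = 0.165).

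**Figure D3:**
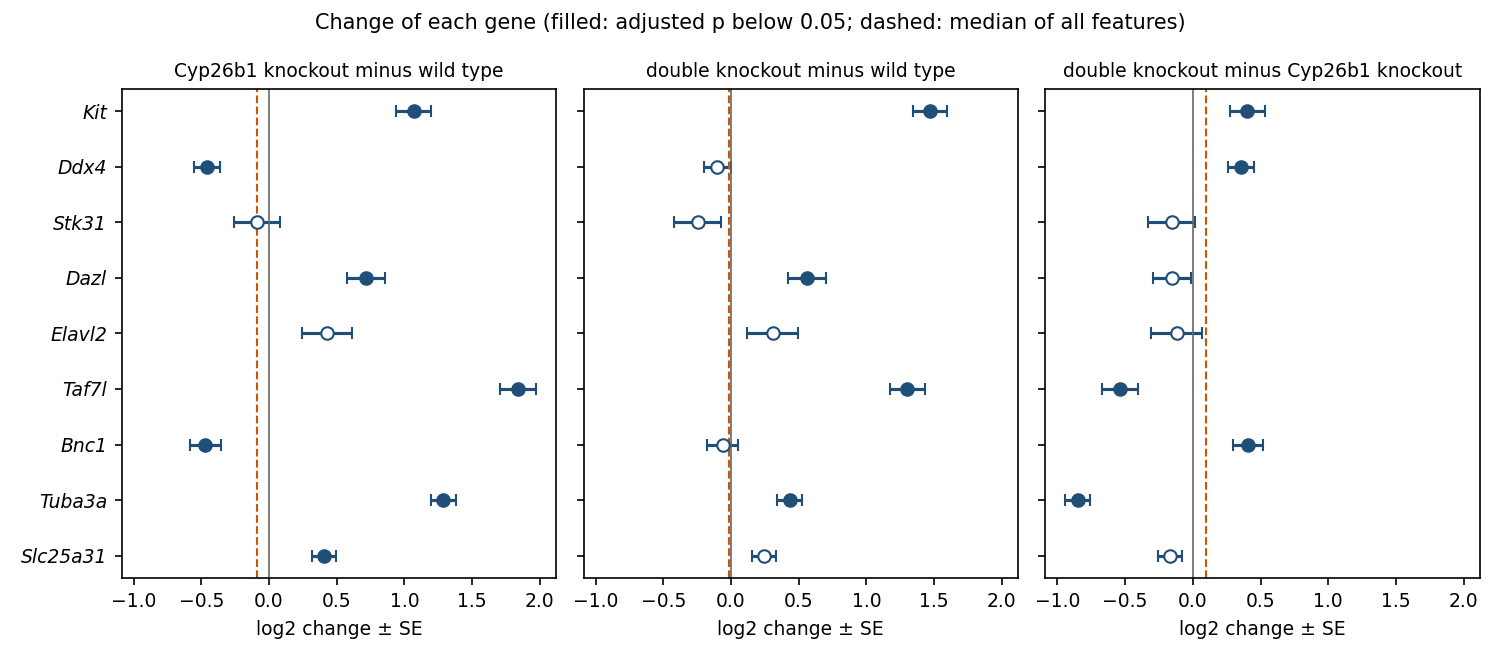
Log2 change with its standard error (x axis) of each measured gene in the 3 comparisons; filled points passed an adjusted p of 0.05 and the dashed line is the median over all features tested. Against wild type, Cyp26b1 knockout points run from -0.47 for Bnc1 to 1.84 for Taf7l, and double knockout points from -0.25 for Stk31 to 1.47 for Kit.

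Counted over the 9 measured genes, the first comparison set arrays labelled Cyp26b1 knockout against wild-type arrays. In Cyp26b1 knockout against wild type 5 were higher (Taf7l, Tuba3a, Kit, Dazl and Slc25a31), beside 21.3% of all 21552 features, and 2 were lower (Ddx4 and Bnc1), beside 29.9% of all features. The other 2, Stk31 and Elavl2, did not pass. Their median log2 change was 0.43, beside -0.09 over all features, and their changes spanned 2.31 on the log2 scale, while the standard errors were 0.088 to 0.19. With so many features called in either direction, a call by itself sets a gene little apart here. Slide and scan day differed along with genotype in this comparison, and their part was not tested.

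The second comparison set the double knockout against wild type. Here 4 of the 9 were higher (Kit, Taf7l, Dazl and Tuba3a), beside 5.43% of all features, and 0 were lower, beside 6.56%. The median change of the 9 was 0.31, beside -0.02 over all features. All 4 were also higher in Cyp26b1 knockout, but both comparisons used the same wild-type arrays. Of these calls Kit and Taf7l held under every alternative tried, whereas Dazl and Tuba3a were lost without wild-type array 1, wild-type array 2 or double knockout array 2, each of which left 2 genes called.

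The third comparison set double knockout against Cyp26b1 knockout, whose slides were also scanned on different days. Relative to Cyp26b1 knockout, 3 of the 9 were higher in double knockout (Kit, Bnc1 and Ddx4), beside 25.5% of all features, and 2 were lower (Tuba3a and Taf7l), beside 17.6%. The median change of the 9 was -0.15, beside 0.09 over all features. Tuba3a was called under every alternative. The number called was 3 without Cyp26b1 knockout array 1, Cyp26b1 knockout array 2 or double knockout array 1, and 2 without double knockout array 2, when no gene was called higher. Quantile normalization gave 1 higher and 3 lower, and normexp 0 higher and 2 lower. The authors' deposited values, whose centring is unknown, gave 0.098 for Kit, 0.10 for Bnc1 and 0.053 for Ddx4 in this comparison. They gave -1.15 for Tuba3a and -0.84 for Taf7l, and their median over all features was -0.21, beside 0.09 here.

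The dimmer probes of Dazl, Taf7l, Elavl2 and Tuba3a were counted in the fit with each probe as its own feature. Against wild type 3 of the 4 were higher in Cyp26b1 knockout, beside 25.2% of all 27865 probes, and 3 of the 4 in double knockout, beside 5.09%. In double knockout against Cyp26b1 knockout 3 of the 4 were lower, beside 22.3%. The exception each time was Elavl2. Probes of 1 gene share its transcripts and are not independent measurements.

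The 9 genes were then set against each other, among them Kit, Bnc1 and Elavl2, which other cells make too. Each gene was expressed relative to the mean of the other 8 on the same array, a scale on which equal changes of all 9 genes give 0. This scale was added after the first results were seen, and it leaves the other features as they were. On it Cyp26b1 knockout against wild type gave 3 higher genes, Taf7l at 1.48 ± 0.14 (adjusted p = 0.000289), Tuba3a at 0.86 ± 0.13 (adjusted p = 0.00174) and Kit at 0.61 ± 0.13 (adjusted p = 0.00701). It gave 3 lower genes, Bnc1 at -1.12 ± 0.16 (adjusted p = 0.00137), Ddx4 at -1.11 ± 0.097 (adjusted p = 0.000231) and Stk31 at -0.69 ± 0.17 (adjusted p = 0.0120). Dazl, Elavl2 and Slc25a31 did not pass, at 0.21, -0.11 and -0.13.

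In double knockout against wild type, on the same relative scale, Kit at 1.17 ± 0.13 (adjusted p = 0.00317) and Taf7l at 0.98 ± 0.14 (adjusted p = 0.00729) were higher, and Ddx4 at -0.60 ± 0.097 (adjusted p = 0.0103) and Stk31 at -0.77 ± 0.17 (adjusted p = 0.0306) were lower. Tuba3a, called on the common scale, was at 0.00010 here (adjusted p = 0.999). Between double knockout and Cyp26b1 knockout, Kit at 0.55 (adjusted p = 0.0132), Bnc1 at 0.56 (adjusted p = 0.0283) and Ddx4 at 0.50 (adjusted p = 0.00590) were higher, and Tuba3a at -0.86 (adjusted p = 0.00256) and Taf7l at -0.50 (adjusted p = 0.0258) were lower. With each gene set against the median of the other 8 in place of their mean, as first planned, and all other features on that scale as well, Cyp26b1 knockout against wild type had 2 higher and 4 lower, with Kit at 0.22 (adjusted p = 0.391). In that version double knockout had 2 higher and 1 lower than wild type, with Ddx4 at -0.39 (adjusted p = 0.123), and 3 higher and 1 lower than Cyp26b1 knockout, with Taf7l at -0.35 (adjusted p = 0.131). Its fit had 173 prior degrees of freedom, against 4.34 on the scale of means, so calls on these scales are not directly comparable. Values on such scales depend on one another, because a rise of 1 gene lowers the relative level of the other 8. The levels give no count of germ cells, and how far germ cell number differed between genotypes was not tested.

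**Figure D4:**
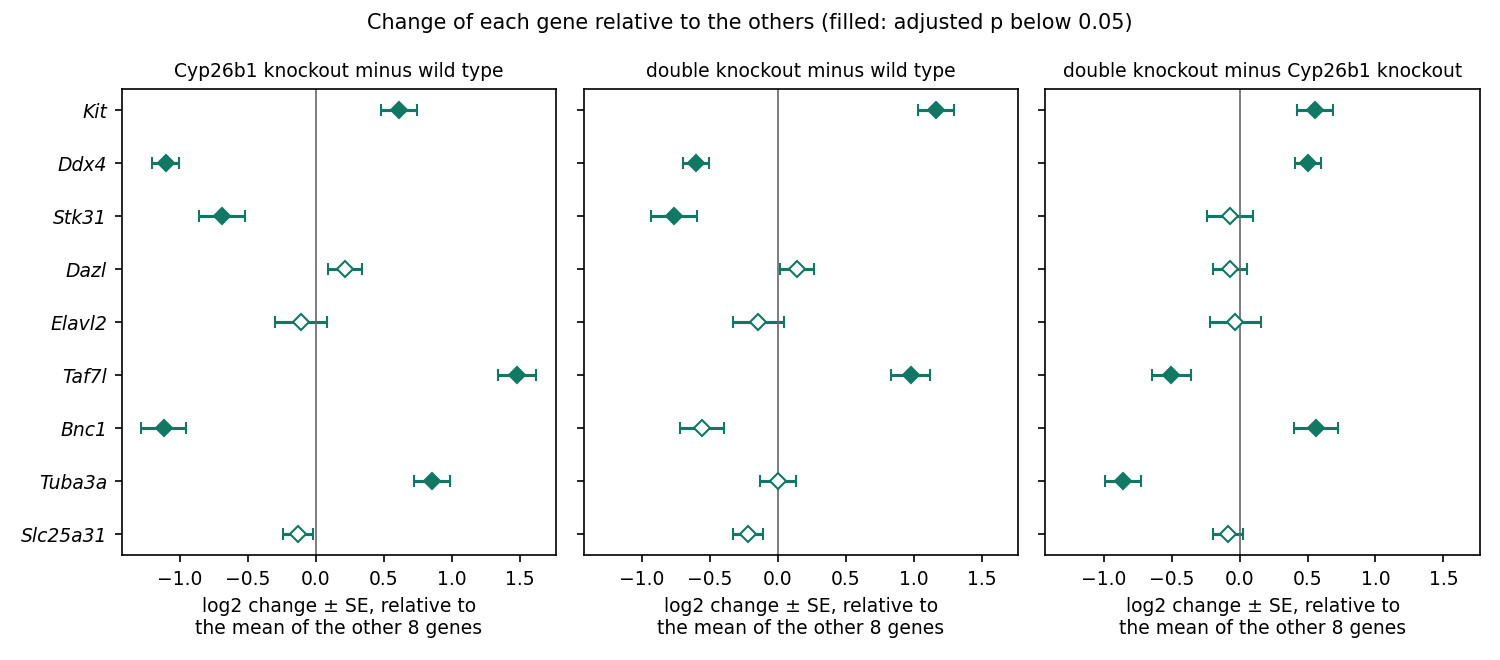
Log2 change with its standard error (x axis) of each gene relative to the mean of the other 8, in the 3 comparisons; filled points passed an adjusted p of 0.05 and the vertical line at 0 is where all genes would lie had they changed equally. In Cyp26b1 knockout against wild type Taf7l (1.48) and Bnc1 (-1.12) lie at the ends, and in double knockout against wild type Kit (1.17) and Stk31 (-0.77) do.

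Other germ cell genes, taken from fixed lists, are given beside them. Counts here and in the next paragraph are to be read beside the shares of all features called. Those were 21.3% higher and 29.9% lower in Cyp26b1 knockout against wild type, and 5.43% and 6.56% in double knockout against wild type. Between double knockout and Cyp26b1 knockout they were 25.5% and 17.6%. The list of germline RNA-binding and granule genes also holds some other germ cell genes, such as Brdt and Tex101. Of its 16 genes tested, 3 were higher and 10 lower in Cyp26b1 knockout against wild type, with a median of -0.84. Ddx25, an RNA helicase of the DEAD-box family like Ddx4, fell by 1.93 (adjusted p = 6.61e-05), and Dnd1, which keeps fetal germ cells alive, fell by 2.01 (adjusted p = 0.000106). The double knockout had 1 higher and 3 lower than wild type, with Dnd1 at -0.97 (adjusted p = 0.00580) and Brdt at -1.46 (adjusted p = 0.00804). Compared with Cyp26b1 knockout, 10 were higher and 2 lower in double knockout, with Ddx25 at 1.59 (adjusted p = 0.000329) and Tex101 at -0.91 (adjusted p = 0.000580). The summed level of the 17 genes on the array was 108 to 115 in Cyp26b1 knockout, 132 to 135 in double knockout and 157 to 166 in wild type.

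Among 16 pluripotency and surface markers of germ cells, 1 was higher and 5 were lower in Cyp26b1 knockout against wild type, 1 higher and 4 lower in double knockout against wild type, and 2 higher and 1 lower between double knockout and Cyp26b1 knockout. Dppa4, a chromatin protein of pluripotent cells, fell by 2.07 in Cyp26b1 knockout (adjusted p = 0.000274) and by 1.34 in double knockout (adjusted p = 0.00727), while the nuclear receptor Nr6a1 was higher by 1.51 in Cyp26b1 knockout (adjusted p = 0.000491). Between double knockout and Cyp26b1 knockout Dppa4 was at 0.73 (adjusted p = 0.0204) and Nr6a1 at -0.82 (adjusted p = 0.00780), and the integrin Itga6 was at -0.79 in double knockout against wild type (adjusted p = 0.00972). Of 16 meiotic prophase genes, which include Stra8 itself, 13 were higher and 0 lower in Cyp26b1 knockout against wild type, 6 higher and 0 lower in double knockout against wild type, and 0 higher and 7 lower in double knockout against Cyp26b1 knockout. Rec8, the meiotic cohesin subunit, was higher by 2.76 in Cyp26b1 knockout (adjusted p = 9.04e-05) and by 3.06 in double knockout (adjusted p = 0.000254). Msh5, a recombination protein, was higher by 2.25 in Cyp26b1 knockout than in wild type (adjusted p = 0.000204). It was lower in double knockout than in Cyp26b1 knockout, at -2.69 (adjusted p = 0.000424), as was the recombinase Dmc1, at -2.39 (adjusted p = 0.00112). Msh5 averaged low relative levels of -1.88 in Cyp26b1 knockout, -4.56 in double knockout and -4.12 in wild type. Of 8 male germ cell fate genes, 2 were higher and 4 lower in Cyp26b1 knockout against wild type, 1 higher and 3 lower in double knockout against wild type, and 4 higher and 2 lower between the knockouts. Dnmt3l, a partner of the DNA methyltransferases, fell by 7.03 in Cyp26b1 knockout (adjusted p = 7.51e-05) and was at -5.25 in double knockout against wild type (adjusted p = 0.000687). Nanos2, which directs male germ cell fate, was at -2.93 in Cyp26b1 knockout (adjusted p = 0.000229), and the methyltransferase Dnmt3b at 0.49 in double knockout against wild type (adjusted p = 0.0295). Relative levels in Cyp26b1 knockout were low, averaging -3.41 for Dnmt3l and -3.43 for Nanos2, against 3.62 and -0.50 in wild type. Set against Cyp26b1 knockout, in double knockout Morc1, a silencer of transposons, was at 2.43 (adjusted p = 0.00150) and the signalling gene Lefty2 at -1.38 (adjusted p = 0.00106).

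**Figure D5:**
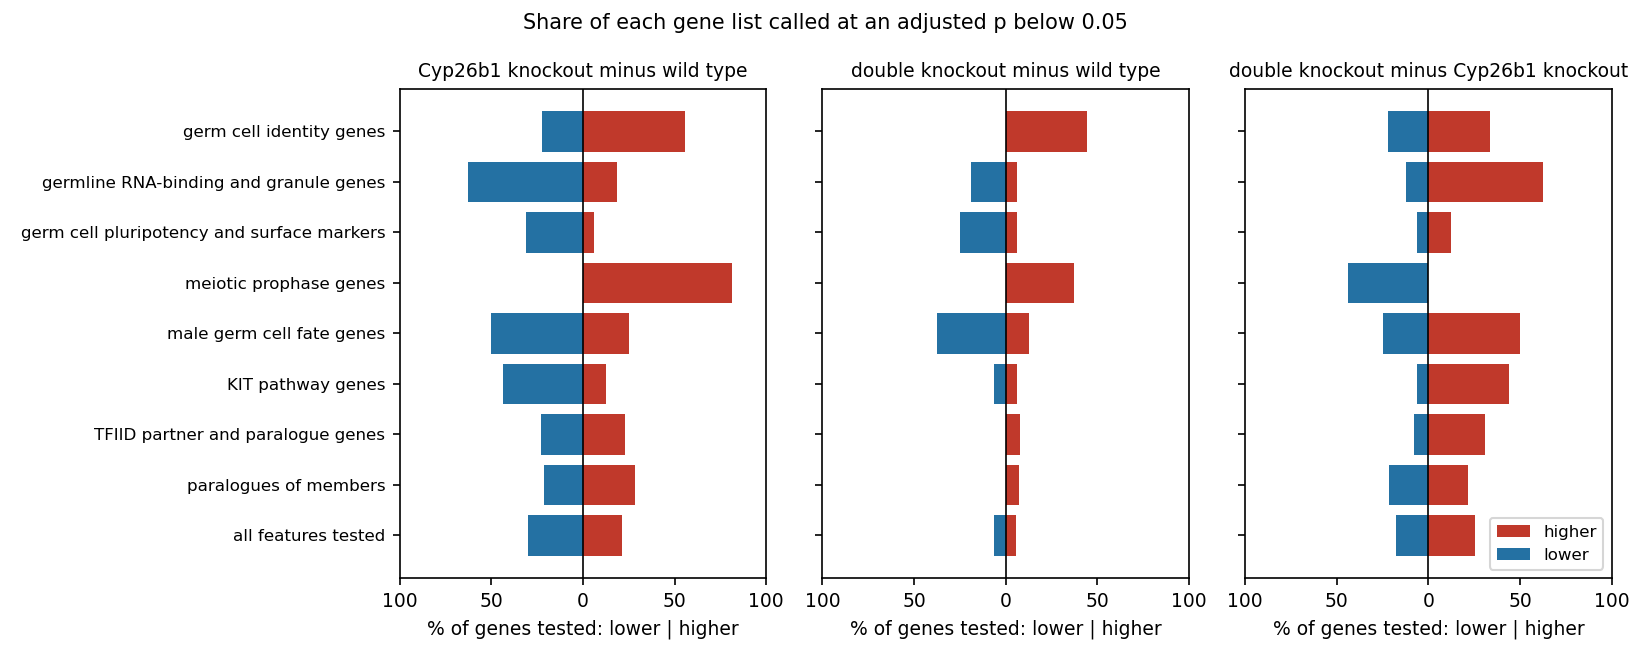
Share of the tested genes of each list that was called lower (bars to the left) or higher (bars to the right) at an adjusted p below 0.05, in percent, for the 9 germ cell identity genes, 7 other lists and all features tested. In Cyp26b1 knockout against wild type 5 of 9 identity genes and 13 of 16 meiotic genes were higher, while 10 of 16 genes of the RNA-binding and granule list were lower.

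Markers of somatic gonad cells are given for the same arrays, and their counts are to be read beside the shares of all features called, 21.3% higher and 29.9% lower in Cyp26b1 knockout against wild type and 5.43% higher and 6.56% lower in double knockout against wild type. Of 13 Sertoli cell markers, 4 were higher and 4 lower in Cyp26b1 knockout against wild type, and 2 higher and 4 lower in double knockout against wild type. Their summed level was 112.5 to 113.5 in Cyp26b1 knockout, 116 to 129 in double knockout and 124 to 141 in wild type. Of 9 fetal Leydig cell markers, 5 were lower and 1 higher in Cyp26b1 knockout against wild type, with the steroid transport gene Star at -1.57 (adjusted p = 0.000286), and the summed level was 84.9 to 111 in Cyp26b1 knockout, 116 to 137 in double knockout and 132 to 139 in wild type. Among 11 endothelial markers 6 were higher and 2 lower in Cyp26b1 knockout against wild type, with summed levels of 23.9 to 24.3 in Cyp26b1 knockout, 26.6 to 28.4 in double knockout and 22.7 to 23.5 in wild type. Interstitial markers summed to 127 to 151 in Cyp26b1 knockout, 187 to 188 in double knockout and 147 to 164 in wild type, and markers of macrophages and blood to 158 to 186 in Cyp26b1 knockout, 205 to 217 in double knockout and 216 to 240 in wild type. Mesonephric and duct markers summed to 1.38 to 1.55 in Cyp26b1 knockout, 1.63 to 1.65 in double knockout and 1.89 to 2.004 in wild type. The part of these cell types in the levels of the germ cell genes was not tested.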

How the data were processed

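Each array has 1 scanner file, deposited by the authors, and its processed signal is a spot intensity that Agilent Feature Extraction 9.5.3.1 had background-subtracted and detrended, per the file headers (9.5 per the submitters' processing notes). The deposited value table has 1 column per genotype and behaves as a linear ratio. Its log2 differences followed those of the scanner files (r of 0.998 to 0.999), and its medians of 1.12 for Cyp26b1 knockout, 0.959 for double knockout and 0.9998 for wild type leave its centring and scaling unknown.

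From the intensities, control spots and spots marked as outliers were left out, spots of a probe averaged, and log2 values taken minus the 75th percentile of each array. Of 41174 probes, 25 had no usable spot on some array and 23363 were named through RefSeq accessions (GRCm38.p6). A gene was its probe with the highest mean, and 21552 features well above background on both arrays of a genotype entered the test (limma 3.58.1, R 4.3.3, with lmFit and eBayes with an intensity trend, all 6 arrays in 1 fit, 3 residual and 4.34 prior degrees of freedom). Dimmer probes were tested in a fit with each probe as its own feature. P-values are two-sided and adjusted by Benjamini-Hochberg over all features, with a threshold of 0.05. An exact permutation test of 2 arrays against 2 could not go below 0.333. The number of arrays limits the precision.

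The genes and lists were chosen with earlier results of these data known. Other genes were named by a rule, the 2 called genes of a list with the smallest adjusted p in a comparison, or 1 for a list of another cell type, and of the paralogues always Taf7, Boll and Elavl1. Some list genes are not reported here. Alternatives covered scaling, background correction, the filter on dim probes, the choice of probe, the arrays in the fit, a replicate block and leaving out each array. Mean signals are not among the columns of the files used here, so normexp (offset 50) used median signals.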

Additional observations from a re-analysis of the deposited data

How the results depend on the processing

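The count of called genes in Cyp26b1 knockout against wild type was 7 and stayed between 5 and 8 under every alternative run. In double knockout against wild type it was 4, and fell to 2 without scaling, without the filter on dim probes and without an intensity trend, and lay between 2 and 4 when 1 array was left out. In double knockout against Cyp26b1 knockout it was 5, and fell to 2 with normexp, to 3 without an intensity trend, and lay between 2 and 4 when 1 array was left out. With normexp without spots marked in their local background, an alternative added after seeing the data, the counts were 7, 4 and 5. The cause of the other shifts was not tested. Slc25a31 in Cyp26b1 knockout against wild type turned to -0.45 relative to the median of the other germ cell genes and to -0.13 relative to their mean, since both scales subtract genes that rose more. Over all single-gene values and alternatives, 481 stayed on the same side of the threshold or, without a test, within the replicate SD (26 of them with the opposite sign, 0 of these called), 52 lost the call, 11 gained it and 21 moved by more than the replicate SD in values without a test. Without scaling the median of all features moved to -0.50 in Cyp26b1 knockout against wild type and to 0.42 between the knockouts, and calls in the higher direction went to 12.5% of all calls, against 41.7%, in the first of these, to 31.2%, against 45.3%, in double knockout against wild type, and to 86.7%, against 59.2%, between the knockouts. Median scaling gave 71.0% and 70.7% in the last pair. Among all features normexp called 1619 higher and 1970 lower in Cyp26b1 knockout against wild type, where the reported fit called 4599 and 6443. With the replicate number as a block the counts were 7, 3 and 5, with Dazl in double knockout against wild type at adjusted p = 0.0515. Deviations of same-numbered arrays correlated at 0.108 to 0.201, and with 2 numbers this does not establish pairs. Slide as a block was not run, since each slide held 1 genotype.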

Other observations

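The somatic marker lists held further differences, given here by the 1 called gene with the smallest adjusted p in each list and comparison. Counts are to be read beside the shares of all features called, 21.3% higher and 29.9% lower in Cyp26b1 knockout against wild type. The shares were 5.43% and 6.56% in double knockout against wild type, and 25.5% and 17.6% between the knockouts. Sertoli cell markers were led by the prostaglandin synthase Ptgds in Cyp26b1 knockout against wild type, at -0.80 (adjusted p = 0.000589). The tight junction gene Cldn11 led them in double knockout, at 1.55 against wild type (adjusted p = 0.00108) and at 0.90 against Cyp26b1 knockout (adjusted p = 0.00179). Of 13 Sertoli cell markers, 4 were higher and 2 lower between double knockout and Cyp26b1 knockout. Star, the cholesterol transporter of steroid-making cells, fell by 0.97 in double knockout against wild type (adjusted p = 0.00892), the only one of 9 fetal Leydig cell markers called there. Between double knockout and Cyp26b1 knockout 4 of these 9 were higher and 1 lower, with Gramd1b higher by 0.75 in double knockout (adjusted p = 0.000877).

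Of 11 endothelial markers, 6 were higher and 2 lower in Cyp26b1 knockout against wild type, and 3 higher and 0 lower in double knockout against wild type. Between double knockout and Cyp26b1 knockout 4 were higher and 3 lower. The adhesion gene Pecam1, which germ cells can also express, was higher by 1.58 in Cyp26b1 knockout than in wild type (adjusted p = 0.000286). It was at -1.27 in double knockout against Cyp26b1 knockout (adjusted p = 0.00106), and Sox17 was higher by 0.59 in double knockout than in wild type (adjusted p = 0.00796). Of 11 interstitial and peritubular markers, 4 were higher and 4 lower in Cyp26b1 knockout against wild type, and 3 higher and 0 lower in double knockout against wild type. Between double knockout and Cyp26b1 knockout 3 were higher and 2 lower. Lhx2 was higher by 1.25 in double knockout than in wild type (adjusted p = 0.00102), and the matrix gene Dcn by 1.08 in double knockout than in Cyp26b1 knockout (adjusted p = 0.000553). Mesothelial Krt8 was at -0.84 in double knockout against wild type (adjusted p = 0.00823), and Msln at 1.39 in double knockout against Cyp26b1 knockout (adjusted p = 0.00456). Of 10 macrophage and blood markers, 2 were higher and 3 lower in Cyp26b1 knockout against wild type, with C1qa at 0.67 (adjusted p = 0.00445). In double knockout against wild type 0 were higher and 0 lower. Between double knockout and Cyp26b1 knockout 2 were higher and 2 lower, with Cx3cr1 higher by 0.63 in double knockout (adjusted p = 0.0299). Of 4 melanocyte markers tested, 1 was higher and 1 lower in Cyp26b1 knockout against wild type and likewise in double knockout against Cyp26b1 knockout, with the melanosome gene Pmel at 1.21 in the first (adjusted p = 0.00112) and at -1.06 in double knockout against Cyp26b1 knockout (adjusted p = 0.00279). Of 7 mesonephric and duct markers, 1 was higher and 3 lower in Cyp26b1 knockout against wild type, with Osr1 at -0.70 (adjusted p = 0.00419). In double knockout 0 were higher and 1 lower than wild type, Lhx1 at -1.94 (adjusted p = 0.00333). Between double knockout and Cyp26b1 knockout 2 were higher and 2 lower, with Lhx1 at -1.14 (adjusted p = 0.00626). Lhx1 averaged low relative levels of -3.06 in Cyp26b1 knockout, -4.19 in double knockout and -2.26 in wild type. Pax2 was well above background on both Cyp26b1 knockout arrays and on 0 of the others.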
